A study of Danio rerio with 9 samples.

Results

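The 7 zebrafish genes snai1a, snai1b, snai2, zeb1a, zeb1b, zeb2a and zeb2b, chosen by their symbols, were followed across sorted neural crest and neighbouring cells. They are 7 of the 31953 genes in the count table and of the 20847 genes in the second table, and all 7 were found in both tables and passed the filter on low counts. Snail and zeb genes encode zinc-finger transcription factors that bind short E-box motifs and repress epithelial genes such as E-cadherin. They are textbook drivers of the epithelial-to-mesenchymal transition, by which neural crest cells leave the neural tube and begin to migrate. Teleost fish carry duplicated copies of several of them, written a and b.

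Bulk RNA-seq gave 9 libraries, 3 in each of 3 groups. Cardiac crest consisted of mCherry-positive cells sorted at the 16-somite stage (17 h post-fertilisation, hpf) whose source tissue reached from the midbrain-hindbrain boundary back to somite 6. That fish line carried 3 transgenes, a sox10 promoter construct with GAL4 and cre, UAS:NfsB-mCherry, and myl7:nucGFP, a nuclear GFP driven by a heart muscle promoter. The labels give that stage and age, while the name of the deposited count table gives 20 somites. Trunk crest consisted of GFP-positive cells from somites 7 to 16 of 24 hpf embryos of a second line, whose eGFP is driven by the same stretch of sox10 sequence. Non-crest cells were the mCherry-negative cells of the cardiac crest tissue, from the same line and stage. Both crest groups were therefore defined by a sox10 reporter, and the labels do not say how many embryos were pooled for a library.

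Libraries of the count table, which holds cardiac crest and non-crest, had between 34062539 and 45172404 reads. Trunk crest libraries had between 25128422 and 29842884 reads over the genes listed in the second table. Crest identity genes (13 genes, sox10, tfap2a and ets1 among them) summed to 1543 to 2405 RPM in cardiac crest and 2063 to 2085 in trunk crest, against 491 to 638 in non-crest. By the tests described below, 2 of the 13 (sox10 and ets1) were called higher than in non-crest and 0 lower (0.290% and 1.21% of all genes). In 6 of the 13 all cardiac crest libraries lay above all non-crest libraries and in 0 below, as in 8.76% and 8.26% of all genes. Fits without 1 library called 1 to 4 of the 13 higher, and 14 to 74 of all genes. DESeq2 called 5 of the 13 higher, and 331 of all genes. Against trunk crest 2 were called higher and 4 lower (10.7% and 12.5% of all genes), so the similar sums hold moves in both directions. The sort itself used a sox10 reporter. Somite and muscle markers (15 genes) stood at 163, 152 and 8795 RPM in cardiac crest replicates 1, 2 and 3, so replicate 3 stood apart, while trunk crest had 5520 to 21711 and non-crest 7742 to 11126. Most of the large sums came from 1 gene, actc1b. It had 4.55, 13.8 and 8007 RPM in cardiac crest, 15594, 4218 and 6244 in trunk crest and 8627, 9162 and 5917 in non-crest. Non-crest replicate 3 also stood apart, whose endothelium and blood markers (14 genes) summed to 2653 RPM, against 1018 and 981 in replicates 1 and 2. RPM, used for these sums and for every level set across all 3 groups, are reads per 1000000 reads over the genes that both tables list. Pigment cell markers (12 genes) summed to 284 to 386 RPM in cardiac crest and 45291 to 50099 RPM in trunk crest, against 159 to 227 RPM in non-crest, and all 12 were lower in cardiac crest than in trunk crest by the limma test described next; their part in the results below was not tested. Libraries are bulk, so fewer cells of a type and less RNA per cell cannot be told apart.

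Compared with trunk crest, cardiac crest held fewer transcripts of snai1a and snai2 and more of snai1b and zeb1a, while zeb1b, zeb2a and zeb2b were not called. The question here was how sorted crest cells of different axial levels differ. Levels in this comparison are the deposited size-factor-scaled reads, and the test was limma on log2(value + 1), with adjusted p below 0.05 counted as a call. Of the 7 genes, 4 were called, where 23.2% of all 20847 genes were called; 2 were higher in cardiac crest (10.7% of all genes) and 2 lower (12.5%). The same 4 had an unadjusted p below 0.05, as did 36.7% of all genes. Their groups did not overlap, as for 41.4% of all genes, 21.5% with cardiac crest higher and 19.9% with it lower. Axial level cannot be told apart here from age (17 or 24 hpf), fish line, reporter or any library batch, which the labels do not name.

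The snail genes moved in both directions. For snai1a (ENSDARG00000056995, chromosome 11, 25013879 to 25019979 on GRCz10), a Snail1 gene known in zebrafish from the early mesoderm, cardiac crest had 655, 289 and 778 scaled reads, against 3514, 3793 and 3400 in trunk crest. Every trunk crest library lay above every cardiac crest library. The log2 fold change was -2.75 ± 0.36 (SE), 6.74-fold lower on the scale of log2(value + 1), with a limma adjusted p of 0.00100. Of the bases of snai1a, 9.41% overlap the neighbouring gene on the opposite strand, and reads there cannot be told apart because counting used no strand. In the same library order, somite and muscle markers were at 163, 152 and 8795 RPM in cardiac crest and 21711, 5520 and 7520 RPM in trunk crest. Their part in the snai1a values was not tested.

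Transcripts of snai2 (ENSDARG00000040046, chromosome 24, 35501020 to 35507036), the Slug gene, which is the classical crest member of the family in chick and frog, were at 4771, 3073 and 2618 scaled reads in cardiac crest. In trunk crest they were at 12853, 8163 and 7992. The groups did not overlap, and the log2 fold change was -1.48 ± 0.29 (SE; limma adjusted p = 0.00698). The calls of snai1a and snai2 each held without any 1 library. The largest adjusted p over all 14 alternative settings, edgeR and DESeq2 on recovered reads included, were 0.00490 for snai1a and 0.0339 for snai2.

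The other Snail1 copy went the other way. For snai1b (ENSDARG00000046019, chromosome 23, 2567005 to 2573963), which serves as a marker of early crest in zebrafish, cardiac crest had 168, 113 and 126 scaled reads and trunk crest 58.0, 8.00 and 1.44. Those trunk values rest on 49, 6 and 1 reads. The trunk libraries spread widely, though none reached the lowest cardiac crest library. The log2 fold change was 3.63 ± 1.04 (SE; limma adjusted p = 0.0356, 95% confidence interval 1.27 to 5.99). This call was lost without any 1 of the cardiac crest libraries (adjusted p between 0.0777 and 0.112), without trunk crest replicate 2 (0.0889) or 3 (0.0627), and with edgeR on the recovered reads (0.103). The log2 fold change was 4.85 without trunk crest replicate 1, 2.55 without replicate 3, and 2.60 with edgeR on recovered reads, so 3.63 is no lower bound.

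Among the zeb genes, zeb1a was the 1 called. It encodes a copy of ZEB1, which in human cells represses E-cadherin (ENSDARG00000016788, chromosome 2, 43954072 to 43998917). Cardiac crest had 254, 259 and 126 scaled reads of zeb1a, against 42.6, 18.7 and 5.76 in trunk crest. All 3 cardiac crest libraries were higher, with a log2 fold change of 3.50 ± 0.74 (SE; limma adjusted p = 0.0102). Without cardiac crest replicate 2 the adjusted p was 0.0528, and the log2 fold change was 4.14 without trunk crest replicate 1 and 2.80 without replicate 3. Trunk crest rested on 36, 14 and 4 reads. Its replicate 1 was the highest of the 3 for zeb1a, snai1b and snai2. Without that library the log2 fold change of snai2 was -1.26 (limma adjusted p = 0.0231). That replicate also had the most somite and muscle marker reads (21711 RPM, against 5520 and 7520 in replicates 2 and 3). It was highest too for notochord and floor plate markers (91.4 RPM, against 2.75 and 8.95) and neural markers (120 RPM, against 34.4 and 87.4). The part of these markers in the values of the 3 genes was not tested.

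The more abundant zeb genes were not called between the crest groups. For zeb1b, the other ZEB1 copy (ENSDARG00000013207, chromosome 12, 26658914 to 26760366), cardiac crest had 1737, 1690 and 1917 scaled reads and trunk crest 1045, 1744 and 1334. The groups overlapped (log2 fold change 0.40 ± 0.25, limma adjusted p = 0.276), and the 95% interval ran from -0.16 to 0.97. For zeb2a (ENSDARG00000062338, chromosome 9, 25964947 to 26025606), whose human counterpart ZEB2 is mutated in Mowat-Wilson syndrome with defects of crest derivatives, cardiac crest had 5565, 4524 and 3802 scaled reads. Trunk crest had 3992, 4477 and 3682. The log2 fold change was 0.18 ± 0.21, with a 95% interval from -0.31 to 0.67 (limma adjusted p = 0.587), so a difference as large as that of snai1a lay outside it. Its duplicate zeb2b (ENSDARG00000078416, chromosome 6, 1149464 to 1195487) was scarce, at 14.7, 67.7 and 4.32 scaled reads in cardiac crest and 9.47, 4.00 and 11.5 in trunk crest. Cardiac crest replicate 2 alone was high, the groups overlapped, and the interval of its log2 fold change reached from -1.21 to 3.29.

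The authors' deposited table gives its own test of this comparison, with the fold change as trunk crest over cardiac crest. In the authors' deposited table, 4 of the 7 genes had an adjusted p below 0.05, as did 28.7% of all genes. These were snai1a, snai2, zeb1a and snai1b, at log2 fold changes of 2.64, 1.47, -3.24 and -2.58 in the authors' deposited table.

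**Figure D1:**
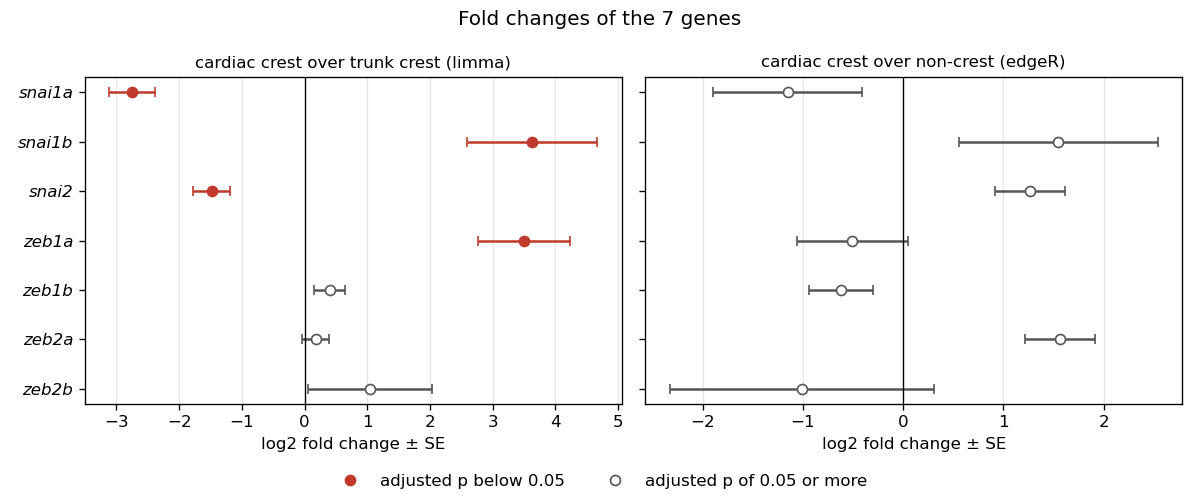
Log2 fold change (horizontal axis) of the 7 snail and zeb genes in cardiac crest over trunk crest (left, limma on log2 of scaled reads + 1) and over non-crest (right, edgeR), with bars of 1 SE on either side; filled red points have an adjusted p below 0.05. On the left snai1a and snai2 lie below 0 and snai1b and zeb1a above it; on the right no gene is filled, and snai2 and zeb2a lie above 0 at 1.26 and 1.56.

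When cardiac crest was set against non-crest, zeb2a and snai2 had higher levels in each cardiac crest library than in any non-crest library, yet neither passed the test over all genes. Here levels are counts per 1000000 reads of the library (CPM), the test was edgeR's quasi-likelihood test on raw counts, and each SE was taken as |log2 fold change| over the square root of F. The cardiac crest libraries are the ones also set against trunk crest, so the comparisons are not independent. Of the 7 genes 0 were called, where 1.50% of 19648 genes were. At an unadjusted p below 0.05 there were 2, snai2 and zeb2a, against 10.8% of all genes, and DESeq2 called 1, zeb2a, where it called 5.43% of the genes to which it gave an adjusted p. In 3 of the 7 genes (snai1b, snai2 and zeb2a) all cardiac crest libraries lay above all non-crest libraries, as in 8.76% of all genes, and in 0 they all lay below, as in 8.26%; the groups were apart in either direction for 17.0% of all genes.

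For zeb2a, cardiac crest had 178, 173 and 131 CPM, against 70.0, 70.2 and 29.3 CPM in non-crest. The lowest cardiac crest library, replicate 3, was still above the highest non-crest library. Its log2 fold change of 1.56 ± 0.35 had an edgeR adjusted p of 0.0899. Without replicate 3 of both groups it was 1.39 ± 0.24 and passed (edgeR adjusted p = 0.0321), in a fit that called 3.75% of all genes. DESeq2 gave an adjusted p of 0.00635, and over all 12 alternatives the adjusted p ran up to 0.406.

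For snai2, cardiac crest had 153, 117 and 90.1 CPM and non-crest 39.6, 66.7 and 45.9 CPM. The groups did not overlap, with a log2 fold change of 1.26 ± 0.35 (edgeR adjusted p = 0.178), and snai2 passed in 0 of the 12 alternatives. For snai1b, cardiac crest had 5.37, 4.32 and 4.34 CPM, and non-crest 3.17, 0.110 and 1.57 CPM. Non-crest replicate 2 rested on 4 reads. The log2 fold change of snai1b was 1.55 ± 0.99 (edgeR adjusted p = 0.652).

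The remaining genes overlapped between cardiac crest and non-crest. For snai1a, cardiac crest had 20.9, 11.04 and 26.8 CPM, and non-crest 16.2, 20.1 and 85.3 CPM. Non-crest replicate 3 alone was high, in the library that also had the highest sum of endothelium and blood markers and the lowest sum of somite and muscle markers (7742 RPM, against 11126 and 10895 RPM in replicates 1 and 2). On that muscle list, actc1b and mylpfa were lowest in non-crest replicate 3, at 5917 and 414 RPM. The somite gene myod1, on the same list, was instead highest in non-crest replicate 3, at 131 RPM, against 11.5 and 28.0 RPM in replicates 1 and 2. The part of these markers in the snai1a value was not tested. With all libraries the log2 fold change of snai1a was -1.15 ± 0.74, and without non-crest replicate 3 it was 0.20 ± 0.47, of the opposite sign, neither being called (edgeR adjusted p = 0.654 and 0.883).

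For zeb1b, cardiac crest had 55.5, 64.5 and 66.0 CPM and non-crest 117, 66.0 and 101 CPM, so that the highest cardiac and lowest non-crest libraries nearly coincided (log2 fold change -0.62 ± 0.32, edgeR adjusted p = 0.546). For zeb1a the values were 8.10, 9.89 and 4.34 CPM in cardiac crest, against 18.7, 9.18 and 5.20 CPM in non-crest. For zeb2b they were 0.470, 2.58 and 0.149 CPM in cardiac crest, against 5.07, 1.51 and 0.133 CPM in non-crest. Both zeb1a and zeb2b were highest in non-crest replicate 1, and without that library their log2 fold changes turned to 0.03 and 0.40, neither called (edgeR adjusted p = 0.996 and 0.970). Neural tube and neuron markers (16 genes) summed to 343 to 777 RPM in cardiac crest and to 1423, 1567 and 471 RPM in non-crest replicates 1, 2 and 3. Notochord and floor plate markers (9 genes) summed to 376, 184 and 186 RPM in non-crest replicates 1, 2 and 3 and to 157 to 210 RPM in cardiac crest. On that list shha was highest in non-crest replicate 1, at 36.1 RPM, against 0.842 and 2.54 RPM in replicates 2 and 3. The genes tbxta and noto were instead highest in non-crest replicate 2, at 3.42 and 0.673 RPM, against 0.932 and 0.0565 RPM in replicate 1. The part of both lists was not tested.

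**Figure D2:**
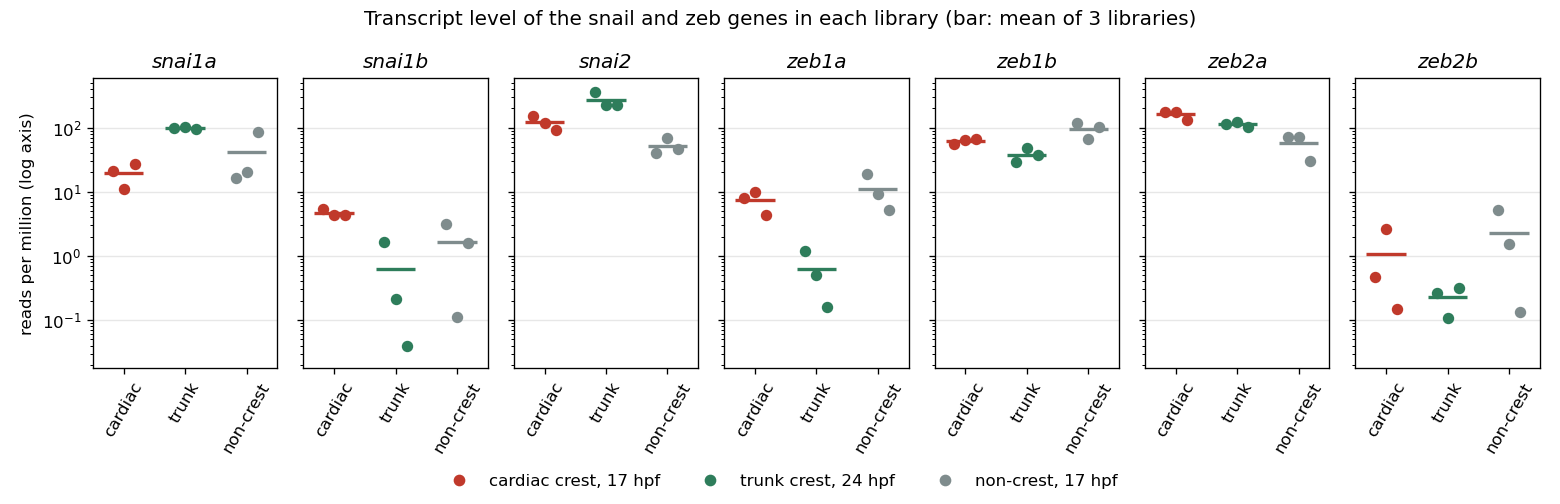
RPM, written out on the vertical log axis, over the genes that both tables list for each of the 7 genes in 3 cardiac crest, 3 trunk crest and 3 non-crest libraries; points are libraries and bars are means. The snai2 points of the 3 groups do not overlap, snai1a is tight in trunk crest at 93.9 to 103, and zeb1a and snai1b spread widely and low in trunk crest.

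Set side by side across the 3 groups on the scale of RPM, the genes differed in which group was highest. Trunk crest and non-crest come from separate tables, and no test was run between them. Trunk crest was highest for snai1a, with a mean of 19.7 RPM in cardiac crest, 98.7 RPM in trunk crest and 41.1 RPM in non-crest. It was also highest for snai2, at 120 RPM in cardiac crest, 269 RPM in trunk crest and 51.5 RPM in non-crest. Cardiac crest was highest for zeb2a (161 RPM in cardiac crest, 112 RPM in trunk crest and 57.3 RPM in non-crest) and for snai1b (4.69 RPM in cardiac crest, 0.633 RPM in trunk crest and 1.63 RPM in non-crest). Non-crest was highest for the other 3 genes. There zeb1b averaged 62.2 RPM in cardiac crest, 37.9 RPM in trunk crest and 95.8 RPM in non-crest, and zeb1a 7.46 RPM in cardiac crest, 0.624 RPM in trunk crest and 11.2 RPM in non-crest. For zeb2b the means were 1.07 RPM in cardiac crest, 0.232 RPM in trunk crest and 2.26 RPM in non-crest. Neighbours in these orders overlapped for snai1a between cardiac crest and non-crest, for snai1b between trunk crest and non-crest, for zeb1a between cardiac crest and non-crest, and for both steps of zeb2b. For zeb1b and zeb2a, cardiac crest and trunk crest did not overlap as RPM but overlapped as scaled reads, the scale of the test above. The zeb1b ranges of cardiac crest and non-crest, apart as RPM, just overlapped as CPM.

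Within a library the make-up of each family does not depend on depth. The snail family was taken here as snai1a, snai1b and snai2, without snai3. Per kilobase of gene body, the length over which the authors counted, snai2 made up 85.8%, 88.9% and 74.9% of the reads of these genes in cardiac crest. It made up 78.5%, 68.5% and 70.4% in trunk crest and 67.9%, 77.0% and 35.0% in non-crest. The share of snai1a was 11.6%, 8.26% and 22.0% in cardiac crest, 21.2%, 31.4% and 29.6% in trunk crest, and 27.4%, 22.9% and 64.0% in non-crest. For snai1b the share was 2.61% to 3.12% in cardiac crest, 0.0110% to 0.306% in trunk crest and 0.110% to 4.70% in non-crest. Thus snai2 was the main snail transcript in 8 of the 9 libraries, non-crest replicate 3 being the exception. The 3 snail genes span 6.02 to 6.96 kb, so lengths hardly alter these shares.

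In the zeb family, zeb2a held 79.9%, 75.7% and 74.2% per kilobase in cardiac crest and 85.2%, 80.7% and 81.8% in trunk crest. In non-crest it held 40.8%, 56.6% and 30.2%, below every crest library. The share of zeb1b was 14.9% to 22.4% in cardiac crest, 13.3% to 18.8% in trunk crest and 31.8% to 62.4% in non-crest. As a ratio of reads, zeb2a over zeb1b was 3.20, 2.68 and 1.98 in cardiac crest and 3.82, 2.57 and 2.76 in trunk crest. In non-crest that ratio was 0.600, 1.06 and 0.289. These are descriptions without a test, since the genes were paired after their values were known. The zeb genes span 44.8 to 101 kb with introns counted, so their per-kilobase levels are not levels per kilobase of mRNA, and how reads fitting both copies of a duplicated pair were counted is not given in the sources used here.

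**Figure D3:**
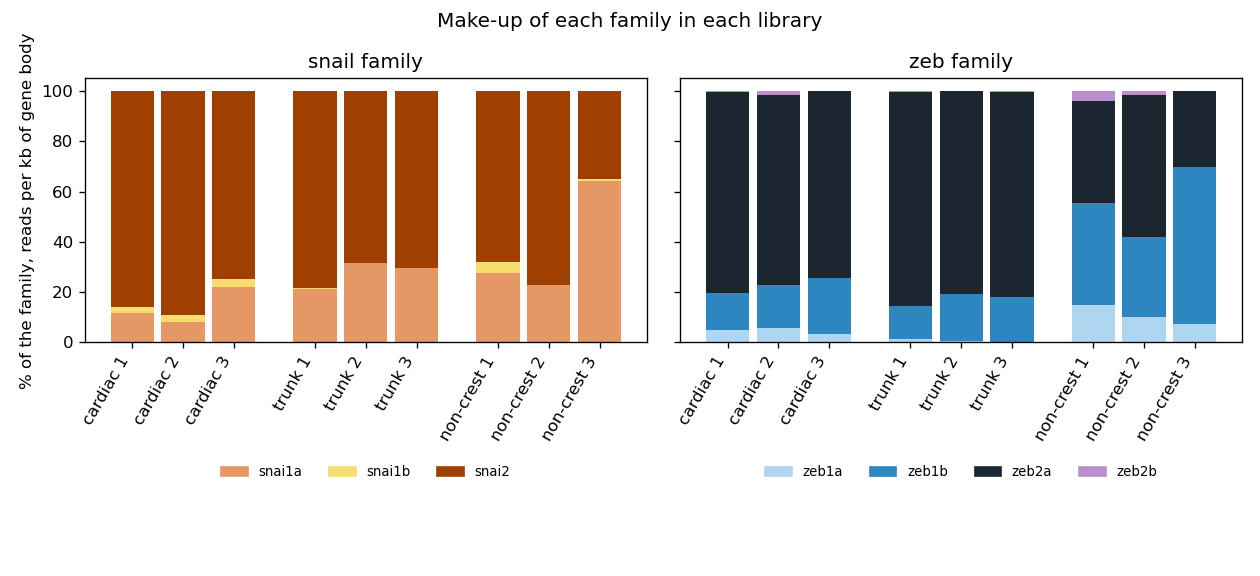
Share of each gene in the summed reads per kilobase of gene body of its family (vertical, percent), for the snail family without snai3 (left) and the zeb family (right), one stacked bar per library of cardiac crest, trunk crest and non-crest. Dark brown (snai2) fills most of each snail bar except non-crest replicate 3, and black (zeb2a) fills 74.2% to 85.2% of the crest bars, against 30.2% to 56.6% of the non-crest bars.

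For the genes around the snail and zeb factors, lists were set from background knowledge with earlier results of these data known. Against non-crest, 5 of 32 tested epithelial genes, listed as targets that snail and zeb factors repress, fell in cardiac crest and 0 rose, with a median log2 fold change of -2.24, against -0.04 over all genes and 1.21% of all genes called lower. They were ovol1a (-6.26), an epithelial transcription factor gene, the desmosome gene pkp3a (-4.43), the splicing regulator gene esrp1 (-3.96), the protease inhibitor gene spint2 (-3.17) and the keratin gene krt18a.1 (-2.40), named as the 1 further call. The count was 1 without cardiac crest replicate 1, 0 without cardiac crest replicate 2 and 4 without cardiac crest replicate 3. It was 3 without non-crest replicate 1 or 2, 8 without non-crest replicate 3 and 14 without replicate 3 of both groups, and DESeq2 called 16. The calls lower among all genes changed too, from 237 in the main fit to 88, 78, 308, 143, 124, 286, 612 and 790. These are in the same order, with non-crest replicates 1 and 2 given singly. In 20 of the 32 all cardiac crest libraries lay below all non-crest libraries and in 0 above, as in 8.26% and 8.76% of all genes. Epidermis markers moved with the epithelial list: 6 of 10 fell, and over the 8 that both tables list they summed to 311 to 582 RPM in cardiac crest and 5802 to 15894 in non-crest. Their part in the fall of the epithelial genes was not tested. For cdh1, the E-cadherin gene and the classical target of both families, cardiac crest had 25.2, 57.0 and 55.2 CPM and non-crest 146, 169 and 48.1 CPM (log2 fold change -1.36 ± 0.46, edgeR adjusted p = 0.290).

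Against trunk crest, more epithelial genes rose than fell in cardiac crest. Of 31 tested, 11 rose and 1 fell, with a median of 2.40, against 0.14 over all genes and 10.7% of all genes called higher; the count of rises was 7 without cardiac crest replicate 2. Among those that rose were the claudin gene cldni (3133 ± 788 scaled reads in cardiac crest, against 4.83 ± 5.08 in trunk crest, SD, n = 3 each), which is on the epidermis marker list too, spint2 (log2 fold change 5.45), f11r.1 (5.28) and tjp3 (4.35), the last 2 encoding tight junction proteins. The 1 that fell was cdh1, named here as the exception, with 788, 1494 and 1603 scaled reads in cardiac crest and 5626, 6494 and 5257 in trunk crest. Its log2 fold change was -2.22 ± 0.29 (limma adjusted p = 0.00104), the same direction as that of snai1a and snai2 and opposite to that of snai1b and zeb1a. Epidermis markers again moved with the list, at 311 to 582 RPM in cardiac crest and 21.3 to 173 in trunk crest, and 2 of 8 rose; their part was not tested.

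Mesenchymal and motility genes showed 1 rise among 31 against non-crest, the cadherin gene cdh6 (251 ± 26.2 CPM in cardiac crest, against a non-crest level of 61.3 ± 21.6 CPM, SD, n = 3 each; edgeR adjusted p = 0.0170), with a median log2 fold change of -0.12. The call of cdh6 did not hold when cardiac crest replicate 1, cardiac crest replicate 2 or non-crest replicate 2 was left out. Of all genes, 0.290% were called higher against non-crest. Against trunk crest 13 of 31 rose and 2 fell, with a median of 1.27, where 10.7% of all genes rose, 12.5% fell and their median was 0.14. The risers included the PDGF receptor gene pdgfra (7.95), cdh11 (5.27), a mesenchymal cadherin gene, and the fibronectin gene fn1a (3.97). The membrane metalloprotease gene mmp17b fell (-4.00), as did rhoab (-1.39), a small GTPase gene named as the other fall.

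Among other EMT transcription factors 0 of 14 passed against non-crest (median -0.12), where only 1.50% of all genes were called. The E-protein gene tcf3b averaged 108 ± 29.3 CPM in cardiac crest, against 96.3 ± 27.1 CPM in non-crest (SD, n = 3 each; log2 fold change 0.17, edgeR adjusted p = 0.905). Against trunk crest 7 of 13 rose and 0 fell (median 3.32), where 10.7% of all genes rose. They included the paired-related homeobox gene prrx1a (1393 ± 79.6 scaled reads in cardiac crest, against 15.7 ± 19.1 in trunk crest), the forkhead gene foxc1a (475 ± 62.5 in cardiac crest, 16.5 ± 19.4 in trunk crest) and twist3 (140 ± 58.0 in cardiac crest, 2.72 ± 1.57 in trunk crest; all SD, n = 3 each). The fourth snail gene, snai3, held at most 95 reads in any library and its groups overlapped in both comparisons.

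Cofactor and degradation genes gave no call against non-crest and some against trunk crest. Against non-crest 0 of 28 passed, with a median of 0.01, where only 1.50% of all genes were called. The co-repressor gene ctbp1, whose protein binds ZEB factors, averaged 358 ± 10.6 CPM in cardiac crest, against 365 ± 44.6 CPM in non-crest (SD, n = 3 each). Against trunk crest 5 of 28 rose and 0 fell (median 0.42), where 10.7% of all genes rose, 12.5% fell and their median was 0.14. In 12 of the 28 all cardiac crest libraries lay above all trunk crest libraries and in 0 below, as in 21.5% and 19.9% of all genes. With upper-quartile scaling 8 rose, in a fit that called 2669 genes higher, against 2233 in the main fit. The 5 of the main fit included the CoREST gene rcor2 (log2 fold change 1.84), the nucleosome remodeller gene chd4b (1.52), the Polycomb gene suz12a (1.24) and mta1 (1.10). Of genes for inducing signals and their receptors 0 of 28 passed against non-crest (median -0.10), again beside 1.50% of all genes. Against trunk crest 14 of 29 rose and 0 fell (median 1.52), where 10.7% of all genes rose and 12.5% fell, with a median of 0.14. The Wnt ligand genes wnt1 (145 ± 68.8 scaled reads in cardiac crest, against 0.839 ± 0.731 in trunk crest), wnt8b (151 ± 60.7 in cardiac crest, 1.68 ± 1.46 in trunk crest) and wnt10b (106 ± 9.55 in cardiac crest, 0.960 ± 1.66 in trunk crest; all SD, n = 3 each) were among them, and fgf3 had 0 reads in trunk crest. Neural tube and neuron markers, at 343 to 777 RPM in cardiac crest and 34.4 to 120 in trunk crest with 9 of 16 higher, moved in the same direction, and sox19a among them had 0 reads in each trunk crest library; their part was not tested.

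**Figure D4:**
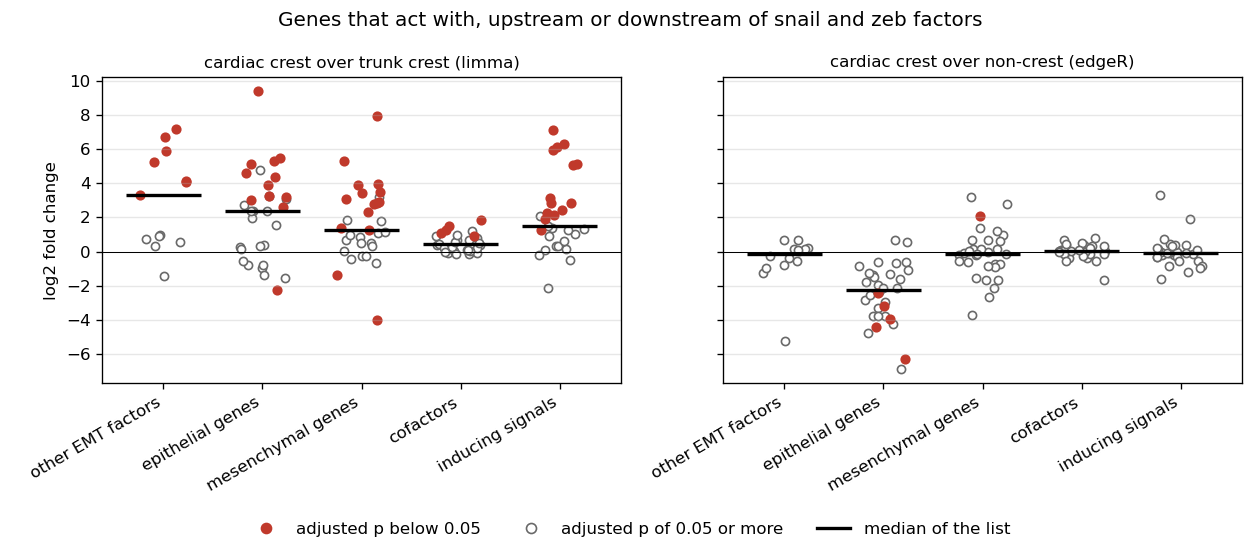
Log2 fold change (vertical) of single genes in 5 lists, for cardiac crest over trunk crest (left, limma) and over non-crest (right, edgeR); filled red points have an adjusted p below 0.05, and black bars are list medians. The epithelial list has its median at 2.40 on the left and -2.24 on the right, and the cofactor list has its median at 0.42 and 0.01.

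The profiles most like those of the 7 genes were found by the root mean square difference of log2(RPM + 1), centred on each gene's mean over the 9 libraries, among named genes of at least 10 RPM on average. For zeb2a the nearest were atp1b2a (0.18) and sertad2a (0.21), for zeb1b sf3b1 (0.17) and tnrc6b (0.18), and for snai2 fpgs (0.19) and rab3ip (0.26). For zeb1a they were baz1b (0.27) and myo1ea (0.29), and for zeb2b calcoco1a (0.27) and tox2 (0.31). For snai1a, trappc6b (0.39) and gys2 (0.41) were nearest, and for snai1b prmt3 (0.47) and med18 (0.49). Between members the closest pair was zeb1b with zeb2b (0.72) and the next snai2 with zeb2a (0.82). A flat profile lay at 0.59 from zeb1b and 0.74 from zeb2a, nearer than those partners. The group means of zeb2b reached at most 2.26 RPM, where the added 1 flattens a profile. Each nearest gene was the closest of many while a member has few partners, so the distances between members cannot be set against those to nearest genes. These distances describe the 9 libraries only.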

How the data were processed

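Sorted cells of 3 groups were profiled by SMART-Seq v4 full-length cDNA and single-end sequencing, per the labels' protocols, with no molecular identifiers. The authors aligned reads to GRCz10 with Bowtie2 and counted them with featureCounts, per the submitters' processing notes. The deposited count table holds raw read counts over whole gene bodies of Ensembl release 80, from featureCounts 1.5.1 run without strand, per the file headers. The second deposited table holds a normalised signal, which came out as whole reads divided by a library size factor for 100% of values (tolerance 0.02); for cardiac crest these reads equalled the count table in all 20847 genes. The notes name DESeq without a version. That deposited table also gives the authors' log2 fold changes, p-values, -log10 adjusted p-values and a test score, of which the log2 fold changes and adjusted p-values are quoted.

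Cardiac crest was tested against non-crest with edgeR 4.0.16 (TMM, robust quasi-likelihood, default filter). Against trunk crest the test was limma 3.58.1 (pseudocount 1, variance trend, robust, no filter). Both used Benjamini-Hochberg adjustment over all genes tested. Both were also run on simulated counts with large planted changes, only for genes that passed the default filter. That setting does not cover the genes below the filter that the limma fit kept. At few reads, fold changes on the log2(value + 1) scale depend on the pseudocount and can lie above or below those of a count model. DESeq2 1.42.0 and R 4.3.3 were used for alternatives. Symbols came from the deposited table, else from a reference table (17643 and 8806 genes). Of 272 listed genes, 26 matched no symbol and were not analysed here, foxd3, sox2 and sox3 among them.

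Members, lists and alternatives were chosen with earlier results of these data known. Genes named from a list were the up to 4 called with the largest fold change at 10 CPM or 100 scaled reads or more, or else the most abundant; exceptions are stated, and cdh1 and snai3 were added after their values were seen. The labels do not give the origin of replicates, so the p-values speak only of spread among these libraries, and part or all of it may be technical.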

Additional observations from a re-analysis of the deposited data

How the results depend on the processing

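Over the alternative settings, 170 of the 182 fold changes of the 7 genes kept their direction and their side of 0.05. That count includes genes not called in the main fit that stayed uncalled, so it does not measure how well the calls held. Against non-crest, 294 genes and 0 members were called. DESeq2 called 1121 genes and 1 member, and leaving out replicate 3 of both groups gave 752 genes and 1 member, zeb2a both times. Leaving out 1 library gave 93 to 361 genes and 0 members. Without 1 library, the log2 fold change ran from -1.57 to 0.20 for snai1a, from -0.83 to 0.033 for zeb1a and from -2.65 to 0.40 for zeb2b, with the sign reversed for snai1a without non-crest replicate 3 and for zeb1a and zeb2b without non-crest replicate 1. Against trunk crest, 4829 genes and 4 members were called. Leaving out 1 library gave 3212 to 4592 genes and 2 to 4 members, the fewest without cardiac crest replicate 2. The calls of snai1a and snai2 held in all 14 alternatives, that of zeb1a was lost in 1 and that of snai1b in 6; without 1 library, log2 fold changes ran from 2.80 to 4.14 for zeb1a and from 2.55 to 4.85 for snai1b. Upper-quartile rescaling moved the median log2 fold change of all genes to 0.26, against 0.14 with the authors' factors, and left the 4 calls in place. A fit with a replicate block had 284 genes and 0 members called against non-crest, and 4273 genes and 4 members against trunk crest; against non-crest it moved snai1b to 2.22 and snai1a to -0.72, with no member call changed. Libraries with the same number deviated together with correlations of 0.030, 0.050 and 0.16 across genes against non-crest. Against trunk crest these were 0.0035, 0.025 and -0.015. Cardiac crest replicates 1 and 3 correlated best with the non-crest library of their own number, and replicate 2 with non-crest replicate 1 (0.18). Over 3 libraries per group such correlations cannot decide whether libraries were paired, so pairing was fitted only as the replicate block. The labels give consecutive library numbers to same-numbered cardiac crest and non-crest libraries but name no shared batch. Depth limits snai1b, zeb1a and zeb2b in trunk crest, where single libraries hold 1 to 49 reads.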
